A study of Bos taurus with 8 samples.

Results

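The BCL2 family decides at the mitochondrion whether a cell lives or dies, and 9 of its genes were followed here in the blood mononuclear cells of cattle: BCL2, BCL2L1, MCL1, BCL2A1, BCL2L11, BAX, BAK1, BAD and BID. They were chosen by name, and every probe whose accession belongs to one of them was taken, which gave 18 probes of the 43653 on the array. After the filter on dim probes, 17 of the 18 remained among 24658 kept probes, and all 9 genes were measured among 15137 genes. Each gene was represented by its probe with the highest mean, and that probe was well above background on all 8 arrays for each of the 9 genes.

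The mononuclear fraction of peripheral blood contains mostly lymphocytes with some monocytes. It was taken from lame crossbred cows, normal crossbred cows and normal cows of the Tharparkar breed, an Indian zebu. No treatment and no age is given for any group. The lame group had 4 arrays (R1_1, R1_2, R2_1 and R2_2), and the normal crossbred and normal Tharparkar groups had 2 arrays each (R1 and R2). Per the labels, each RNA was hybridised in technical duplicate. By their titles and correlations the arrays are treated as 4 RNA samples, namely R1 and R2 of the lame group and a single sample of each normal group. Whether a sample is of 1 cow or pooled is not given. The n below therefore counts arrays, and each p-value measures the spread between arrays and is too small as a test of cows. The lame cows were all crossbred, so the difference between lame crossbred and normal Tharparkar cows is one of both lameness and breed.

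Proteins of this family fall into 3 kinds. BCL2, BCL-XL (from BCL2L1), MCL1 and A1 (from BCL2A1) keep cells alive by holding the death proteins in check. BAX and BAK (from BAK1) form the pores in the outer mitochondrial membrane through which cytochrome c escapes. BIM (from BCL2L11), BAD and BID carry only the BH3 segment in common with the rest and signal death, by blocking the survival proteins or by switching on the pore formers. Lymphocytes lean on BCL2 and MCL1 for survival, neutrophils on MCL1 and A1, and platelets on BCL-XL.

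Levels are given on the log2 scale relative to the 75th percentile of the same array, so 0 stands for the 75th percentile of that array's probes. Because probes differ in how brightly they light up, levels of different genes are not set against each other. Between 52.7% and 61.4% of probes were well above background on 7 of the arrays and 70.9% on lame R2_2, whose median raw signal was 192 against 73.5 to 102 on the others. Duplicate arrays correlated across genes at 0.995 to 0.997, the lame R2 duplicates at 0.981, and lame R1 with lame R2 at 0.951 to 0.970. Between groups the correlations were 0.931 to 0.966. CD3E, MS4A1, CD14 and PTPRC, which mark T cells, B cells, monocytes and leukocytes in general, each had a probe well above background on all 8 arrays. The arrays lay on 2 slides, each with arrays of all 3 groups.

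The 9 genes were called in shares near those of all genes in each comparison, so the counts say nothing particular to them. Lame and normal crossbred cows differed in 0 of the 9 genes at an adjusted p under 0.05 in limma's moderated test, where 9.61% of all genes were called, 3.30% as higher and 6.32% as lower in lame cows. At an unadjusted p under 0.05 there were 2 of 9, BCL2L1 and BCL2A1, against 25.8% of all genes. Between lame crossbred and Tharparkar cows 3 of 9 were called, against 23.3% of all genes: BCL2L1 was higher in lame cows (1 of 9, against 12.5%), and BAX and BID were lower (2 of 9, against 10.8%). Between normal crossbred and Tharparkar cows 1 of 9 was called, BAX, against 18.6% of all genes. It was lower in crossbred cows, as were 6.91% of all genes, and 11.7% were higher. At an unadjusted p under 0.05 there were 5 of 9 in each of these comparisons, against 37.6% of all genes for lame and 33.7% for normal crossbred cows. Both comparisons with Tharparkar cows use the same 2 Tharparkar arrays, so they are not independent.

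All 5 death genes had their highest group mean in Tharparkar cows, whereas 1 of the 4 survival genes, BCL2, did. Each gene was taken by its brightest probe, and the survival count depends on which MCL1 probe is taken. On the other MCL1 probes Tharparkar cows had the highest means, 1.80 and 1.71. Those probes had means of 1.62 and 1.17 in normal crossbred and 1.22 and 0.86 in lame cows. For the other genes with more than 1 kept probe, every probe had the same highest group. Over all genes, Tharparkar cows had the highest group mean in 38.6%, normal crossbred cows in 33.4% and lame cows in 28.0%. The median log2 difference of the 9 genes was 0.14 for lame minus normal crossbred, -0.49 for lame minus Tharparkar and -0.56 for normal crossbred minus Tharparkar. The medians of all genes were -0.037, -0.014 and 0.0076. The arrays of the groups compared did not overlap for 4 of 9 genes between lame and normal crossbred cows, against 5877 of all 15137 genes. The same held for 6 of 9 between lame and Tharparkar cows, against 7563 genes, and for 8 of 9 between normal crossbred and Tharparkar cows, against 12398 genes.

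**Figure D1:**
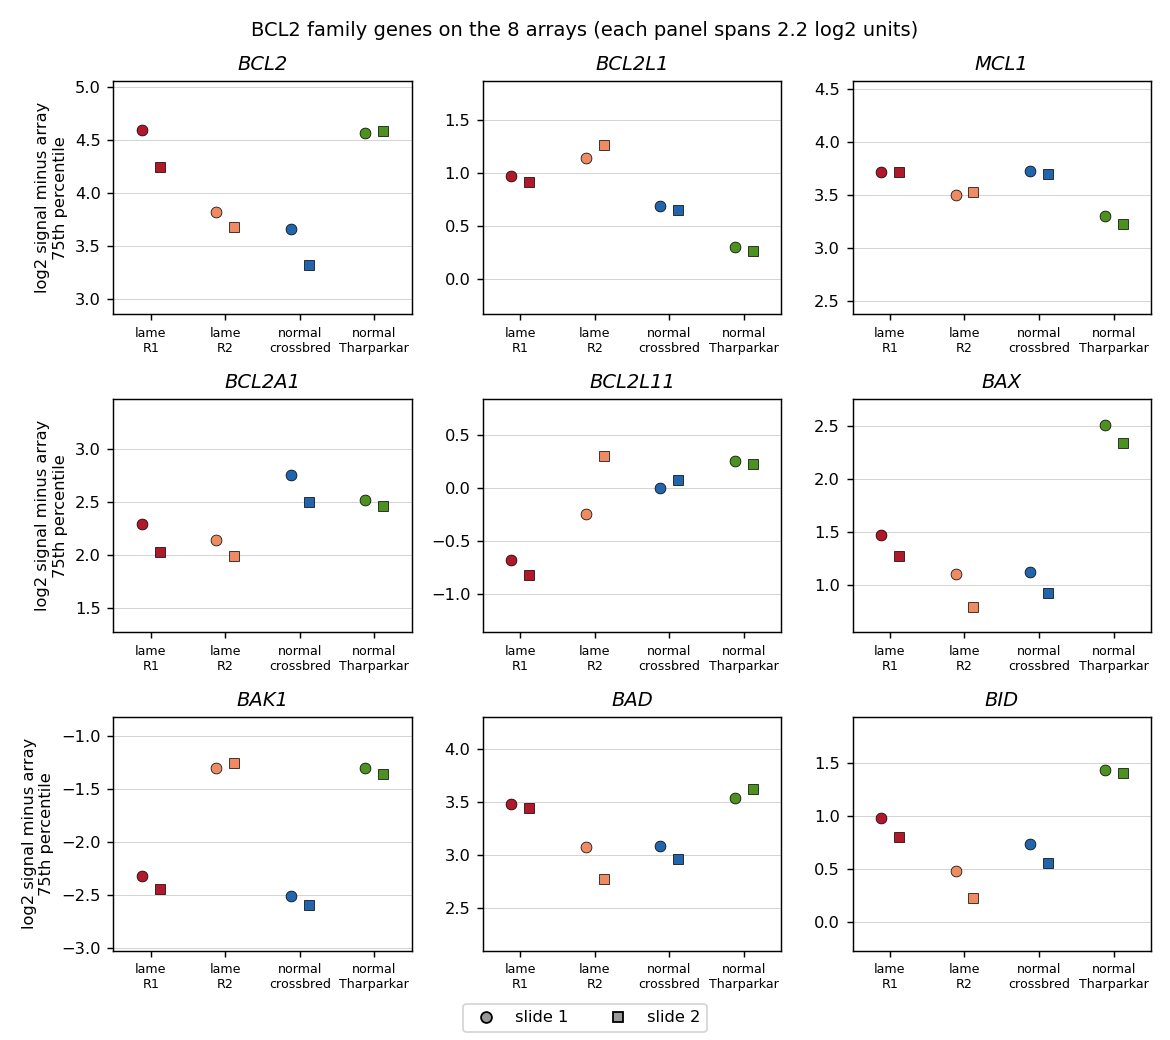
Log2 signal minus the array's 75th percentile for the 9 genes on each of the 8 arrays, with circles for slide 1 and squares for slide 2. Each panel spans the same 2.2 log2 units but starts at its own level. In BAX both Tharparkar arrays, at 2.51 and 2.34, lie above the 6 crossbred arrays, while in BAK1 the lame R1 arrays lie beside the normal crossbred arrays and the lame R2 arrays beside the Tharparkar arrays.

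BAX, the pore former that waits in the cytosol and moves to the mitochondrion when activated, had the largest differences from Tharparkar cows among the 9 genes. The lame arrays stood at 1.47 and 1.27 (R1) and 1.11 and 0.80 (R2), the normal crossbred arrays at 1.13 and 0.93, and the Tharparkar arrays at 2.51 and 2.34. Both Tharparkar arrays lay above all 6 crossbred arrays, and the lame and normal crossbred arrays overlapped. BAX was 2.40-fold lower in lame than in Tharparkar cows (log2 difference -1.26, SE 0.21, 95% interval -1.75 to -0.78, limma adjusted p = 0.00595). It was 2.63-fold lower in normal crossbred than in Tharparkar cows (-1.40, SE 0.24, interval -1.96 to -0.84, limma adjusted p = 0.00815). The lame and normal crossbred means differed by 0.14 (interval -0.35 to 0.62, limma adjusted p = 0.738).

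The BAX difference was close in size on both slides and larger in lame R2 than in lame R1. From Tharparkar cows, lame cows differed by -1.22 on slide 1 and -1.30 on slide 2, and normal crossbred cows by -1.38 and -1.41. Lame R1 alone differed from Tharparkar cows by -1.05 and lame R2 alone by -1.47. The calls rest on few arrays: without Tharparkar R1 the limma adjusted p was 0.0734 for lame and 0.0733 for normal crossbred cows, and without Tharparkar R2 it was 0.0505 and 0.0522. Without either normal crossbred array the normal crossbred call was also lost (limma adjusted p = 0.0540 and 0.0765).

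With the RNA sample as a random block, so that duplicates no longer count as separate samples, 0 of the 9 genes were called in any of the 3 comparisons. In that fit 0.152%, 1.35% and 0.634% of all genes were called, in the order lame against normal crossbred, lame against Tharparkar and normal crossbred against Tharparkar cows. BAX then had an adjusted p of 0.227 against lame and 0.292 against normal crossbred cows, BCL2L1 one of 0.227 and BID one of 0.404 between lame and Tharparkar cows. That fit takes the spread between RNA samples from lame R1 and lame R2, since each normal group is treated as 1 RNA sample. With duplicates averaged, 0 of the 9 were called as well.

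BAK1, the pore former that sits in the mitochondrial membrane already before a death signal, divided the lame group. Its values were -2.32 and -2.44 on the lame R1 arrays, -1.30 and -1.25 on the lame R2 arrays, -2.50 and -2.59 on the normal crossbred arrays and -1.30 and -1.36 on the Tharparkar arrays. Lame R1 stood near the normal crossbred arrays, and lame R2 stood at the level of the Tharparkar arrays. The 2 lame RNA samples differed by 1.11, which was 8.85 times the largest gap between duplicate arrays of this gene. BAK1 had only 1 probe, a dim one. The third BAD probe, also dim, was likewise lower in lame R1 (-2.55 and -2.78) than in lame R2 (-1.80 and -1.52). The brightest BAD probe was higher in lame R1. Lame R2_1 and R2_2 had the most probes well above background (61.4% and 70.9%). Whether the BAK1 gap follows the dimness of its probe was not tested.

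A mean over the lame group covers both levels. Lame minus Tharparkar was -0.50 (SE 0.37, interval -1.38 to 0.38, limma adjusted p = 0.370) over all lame arrays, -1.05 for lame R1 alone and 0.052 for lame R2 alone. Lame minus normal crossbred was 0.72 (SE 0.37, limma adjusted p = 0.282), 0.17 for the lame R1 arrays and 1.27 for the lame R2 arrays taken alone. Normal crossbred minus Tharparkar was -1.22 (SE 0.43, interval -2.23 to -0.21), and it did not pass the test (limma adjusted p = 0.0930).

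BID links the death receptors to the mitochondrion: caspase-8 cuts it, and the cut form acts on BAX and BAK. Its brightest probe stood at 0.98 and 0.79 in lame R1, 0.48 and 0.23 in lame R2, 0.73 and 0.55 in normal crossbred cows and 1.43 and 1.41 in Tharparkar cows. The Tharparkar arrays lay above all crossbred arrays, and the lame and normal crossbred arrays overlapped. BID was 1.74-fold lower in lame than in Tharparkar cows (log2 difference -0.80, SE 0.22, interval -1.32 to -0.28, limma adjusted p = 0.0401). With the slide as a block this call was lost (limma adjusted p = 0.0583), although the difference was -0.70 on slide 1 and -0.90 on slide 2.

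For lame R1 alone the BID difference from Tharparkar cows was -0.53 and for lame R2 alone -1.07. Leaving out lame R2_1 (limma adjusted p = 0.0769), either normal crossbred array (0.0764 each), Tharparkar R1 (0.216) or Tharparkar R2 (0.189) also ended the call. Normal crossbred minus Tharparkar was -0.78, of nearly the same size, with an SE of 0.26 and a limma adjusted p of 0.0774. Lame minus normal crossbred was -0.022 (interval -0.54 to 0.50, limma adjusted p = 0.970).

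BAD is the BH3 protein that growth factor signalling keeps inactive by phosphorylation and binding to 14-3-3 proteins. Its brightest probe stood at 3.49 and 3.44 in lame R1, 3.08 and 2.78 in lame R2, 3.09 and 2.97 in normal crossbred cows and 3.54 and 3.63 in Tharparkar cows. The Tharparkar arrays lay above the lame R1 arrays by little and above the other crossbred arrays by more. Lame minus Tharparkar was -0.39 (limma adjusted p = 0.241) and normal crossbred minus Tharparkar -0.56 (limma adjusted p = 0.177), and neither passed the test.

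BCL2L11 encodes BIM, the BH3 protein behind the death of lymphocytes deprived of cytokines. It stood at -0.68 and -0.82 in lame R1, -0.24 and 0.30 in lame R2, 0.00 and 0.08 in normal crossbred cows and 0.26 and 0.23 in Tharparkar cows. Lame R1 was the lowest, and lame R2 had 1 array below and 1 above both normal groups. The lame mean differed from the Tharparkar mean by -0.60 (SE 0.30, limma adjusted p = 0.190) over all lame arrays, -0.99 for the lame R1 arrays and -0.22 for the lame R2 arrays taken alone. Without lame R2_2 it passed the test at -0.82 (limma adjusted p = 0.0246).

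BCL2L1, which encodes BCL-XL, was the only survival gene called by its brightest probe. Its brightest probe stood at 0.97 and 0.92 in lame R1, 1.14 and 1.26 in lame R2, 0.69 and 0.65 in normal crossbred cows and 0.30 and 0.26 in Tharparkar cows. The 3 groups lay in separate ranges, with lame cows highest and Tharparkar cows lowest. BCL2L1 was 1.73-fold higher in lame than in Tharparkar cows (log2 difference 0.79, SE 0.15, interval 0.44 to 1.14, limma adjusted p = 0.00999). The steps between neighbours in that order did not pass the test: lame minus normal crossbred was 0.41 (SE 0.15, limma adjusted p = 0.137) and normal crossbred minus Tharparkar 0.38 (SE 0.17, limma adjusted p = 0.164).

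The BCL2L1 difference between lame and Tharparkar cows was 0.75 on slide 1 and 0.83 on slide 2, and 0.66 for lame R1 and 0.92 for lame R2. The call was lost without Tharparkar R1 (limma adjusted p = 0.0902), without Tharparkar R2 (0.0971), without the filter on dim probes (0.0608) and with the probes of a gene averaged (0.174). Platelet markers moved with it. Of 10 listed, 5 were measured, and 4 of the 5 were higher in lame than in Tharparkar cows and 0 lower, with a median log2 difference of 1.98; 3 of the 5 were higher in normal crossbred than in Tharparkar cows. With the RNA sample as a random block these platelet calls fell to 1 and 0. Their summed signal, in units of each array's 75th percentile, was 17.4 to 19.9 in lame, 14.4 to 15.3 in normal crossbred and 9.27 to 9.94 in Tharparkar cows. The largest platelet differences between lame and Tharparkar cows were those of VWF (2.78, limma adjusted p = 0.000291) and TUBB1 (2.19, limma adjusted p = 0.0114). The part of platelets in the BCL2L1 difference was not tested, and in such mixed cells fewer cells of a type and less RNA per cell cannot be told apart.

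BCL2 itself, the founding survival gene of the family, was lowest in normal crossbred cows. It stood at 4.59 and 4.25 in lame R1, 3.82 and 3.68 in lame R2, 3.66 and 3.32 in normal crossbred cows and 4.56 and 4.59 in Tharparkar cows. Lame R1 reached the Tharparkar level, and lame R2 lay just above the normal crossbred arrays. Normal crossbred minus Tharparkar was -1.08 (SE 0.31, interval -1.81 to -0.35), and its limma adjusted p of 0.0511 lay just over the threshold. It passed under 7 of 19 alternative settings, with adjusted p-values over all 19 from 0.0165 to 0.966.

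Lame minus normal crossbred was 0.59 for BCL2 (SE 0.27, limma adjusted p = 0.222), 0.93 for the lame R1 arrays and 0.25 for the lame R2 arrays taken alone. Under quantile normalization it was 0.73 and passed the test (limma adjusted p = 0.0345). Relative to Tharparkar cows the lame value was -0.49 (SE 0.27, limma adjusted p = 0.225).

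BCL2A1, an NF-kB target that is abundant in neutrophils and activated lymphocytes, had its lowest values in lame cows. Its brightest probe stood at 2.29 and 2.03 in lame R1, 2.14 and 1.99 in lame R2, 2.75 and 2.50 in normal crossbred cows and 2.52 and 2.46 in Tharparkar cows. All 4 lame arrays lay below all 4 normal arrays, and BCL2A1 was the one gene of the 9 whose lame RNA samples overlapped. Lame minus normal crossbred was -0.51 (SE 0.15, interval -0.87 to -0.16, limma adjusted p = 0.0824) and lame minus Tharparkar -0.38 (SE 0.15, limma adjusted p = 0.117), and neither passed the test.

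Granulocyte markers were also low in the lame arrays. Of 16 listed, 14 were measured: 8 were lower and 0 higher in lame than in normal crossbred cows (median -1.70), and 9 lower and 0 higher than in Tharparkar cows (median -2.14). With the RNA sample as a random block these calls fell to 1 and 4. Their summed signal was 155 to 203 in lame, 232 to 244 in normal crossbred and 256 to 266 in Tharparkar cows. S100A8 and S100A12, the brightest of the list at lame means of 6.23 and 6.51, make up most of this sum. Neither was called, nor was S100A9. Lame minus normal crossbred and lame minus Tharparkar were -0.29 and -0.40 for S100A8, -0.11 and 0.20 for S100A12 and 0.20 and 0.37 for S100A9. CXCR1, a neutrophil chemokine receptor, differed by -3.82 between lame and normal crossbred cows. CATHL1 and CATHL3 were well above background on no lame array and passed the filter through normal arrays. CATHL1 is among the markers called in both comparisons and CATHL3 among those called against Tharparkar cows. The part of granulocytes in the BCL2A1 values was not tested.

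MCL1, a short-lived survival protein that most blood cells need, changed little by its brightest probe. It stood at 3.71 and 3.71 in lame R1, 3.50 and 3.53 in lame R2, 3.72 and 3.69 in normal crossbred cows and 3.30 and 3.22 in Tharparkar cows. Both Tharparkar arrays lay below the 6 crossbred arrays. Lame minus Tharparkar was 0.35 (SE 0.14, limma adjusted p = 0.105), normal crossbred minus Tharparkar 0.44 (SE 0.16, limma adjusted p = 0.0920) and lame minus normal crossbred -0.094 (SE 0.14, limma adjusted p = 0.724).

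**Figure D2:**
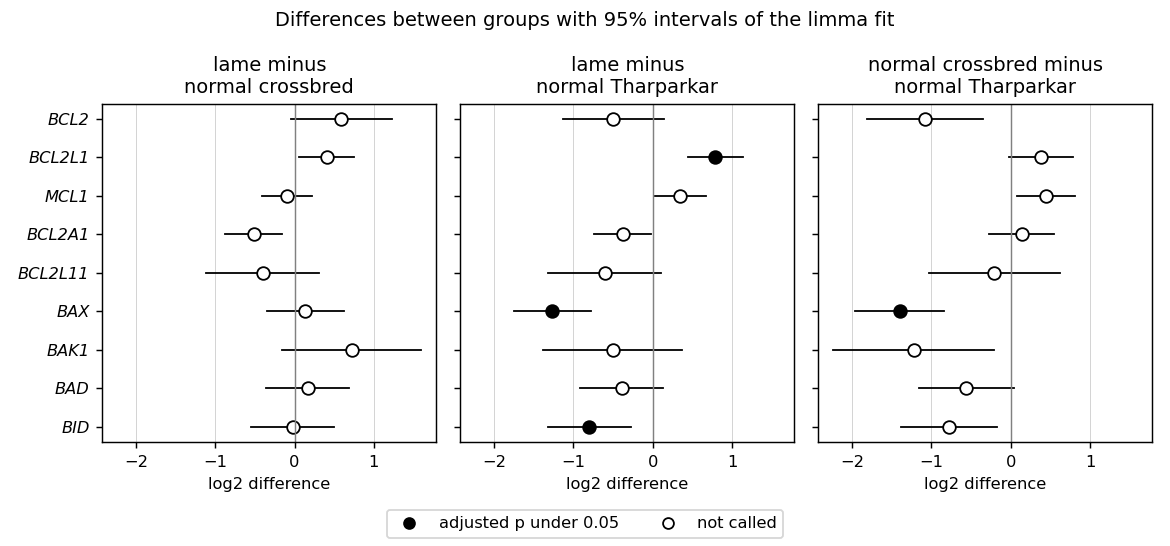
Log2 differences between groups for the 9 genes, 1 panel per comparison, with 95% intervals of the limma fit over 8 arrays. Filled points have an adjusted p under 0.05: BCL2L1 at 0.79 and BAX and BID at -1.26 and -0.80 in the middle panel, and BAX at -1.40 on the right.

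In both comparisons with Tharparkar cows the other probes of MCL1 pointed the opposite way. Lame minus normal crossbred was below 0 on each MCL1 probe (-0.094, -0.39 and -0.31, brightest first), and none was called. The second probe stood at 1.02 and 1.09 in lame R1, 1.23 and 1.55 in lame R2, 1.69 and 1.55 in normal crossbred cows and 1.81 and 1.79 in Tharparkar cows. The third stood at 0.79 and 0.74, 0.88 and 1.04, 1.28 and 1.06, and 1.67 and 1.76 in the same order. On both, the Tharparkar arrays were highest, where on the brightest probe they were lowest. Lame minus Tharparkar was -0.58 (limma adjusted p over all probes = 0.0615) on the second and -0.85 (adjusted p = 0.00971) on the third, the second value missing the threshold and the third passing it. A direction for MCL1 between the breeds therefore cannot be given from these probes, and which transcript each probe detects was not determined here.

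Over all 17 kept probes of the 9 genes, 0 were called between lame and normal crossbred cows, against 7.32% of all probes. Between lame and Tharparkar cows 6 were called, against 21.6%, and between normal crossbred and Tharparkar cows 2, against 17.7%. BCL2, BCL2L11, BAX and BAK1 had 1 probe each, so their values have no second probe beside them.

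The probes of BID pointed the same way between the breeds. Its second probe stood at -0.29 and -0.51 in lame R1, -0.35 and -0.40 in lame R2, -0.42 and -0.57 in normal crossbred cows and 0.80 and 0.69 in Tharparkar cows. This probe showed no gap between the lame RNA samples, and all 6 crossbred arrays lay below 0 where both Tharparkar arrays lay above it. It was lower in lame (-1.13, SE 0.14, limma adjusted p over all probes = 0.00265) and in normal crossbred cows (-1.24, SE 0.16, adjusted p = 0.00365) than in Tharparkar cows. The third, dimmer probe gave -0.26 and -0.83 in these comparisons and was not called.

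BAD had its second probe at 2.47 and 2.19 in lame R1, 2.28 and 2.22 in lame R2, 2.48 and 2.31 in normal crossbred cows and 3.04 and 2.88 in Tharparkar cows. On it lame minus Tharparkar was -0.67 (SE 0.15, limma adjusted p over all probes = 0.0207), a call that the brightest probe did not give. The third BAD probe, near the lower end of the measured range, gave -0.37 (adjusted p = 0.508). All 3 BAD probes had lower means in both crossbred groups than in Tharparkar cows.

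The second probe of BCL2A1 disagreed with the first between lame and Tharparkar cows. It stood at -0.88 and -0.58 in lame R1, -1.75 and -1.19 in lame R2, -0.66 and -0.49 in normal crossbred cows and -1.97 and -1.67 in Tharparkar cows. The difference of lame from Tharparkar cows was 0.72 on it (limma adjusted p over all probes = 0.144) and -0.38 on the brightest probe. Normal crossbred minus Tharparkar was above 0 on both probes. It was 1.24 on the second (limma adjusted p over all probes = 0.0547) and 0.14 on the brightest, and neither passed the test. Both probes were lower in lame than in normal crossbred cows, by -0.52 and -0.51, without passing the test. The second BCL2L1 probe was well above background on 5 arrays and gave 0.60 between lame and Tharparkar cows (SE 0.56), and the third was well above background on 3 arrays and was left out.

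**Figure D3:**
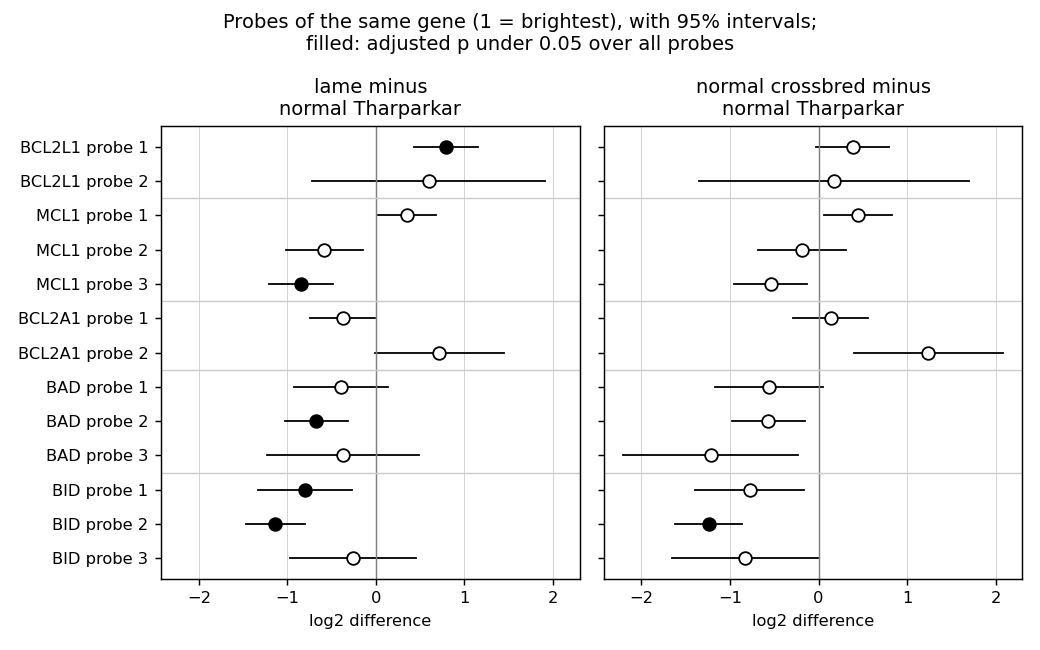
Log2 differences from Tharparkar cows for each kept probe of the 5 genes that had more than 1, with 95% intervals of the limma fit over all probes; probe 1 is the brightest of its gene and filled points have an adjusted p under 0.05. The MCL1 probes lie on both sides of 0, at 0.35, -0.58 and -0.85 on the left, and the BID probes all lie below 0.

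The 2 lame RNA samples stood apart in most of these genes. For 8 of the 9 genes (88.9%) the gap between lame R1 and lame R2 was larger than the largest gap between duplicate arrays, against 63.8% of all genes. The median gap was 0.53 over the 9 genes and 0.50 over all genes. BCL2, BAX, BAD, BID and MCL1 were higher in lame R1, by 0.67, 0.42, 0.54, 0.53 and 0.20. BAK1, BCL2L11 and BCL2L1 were higher in lame R2: their lame R1 minus lame R2 differences were -1.11, -0.78 and -0.26. Survival and death genes stood on both sides. What the 2 lame RNA samples are, and how they differ, is not given in the labels.

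**Figure D4:**
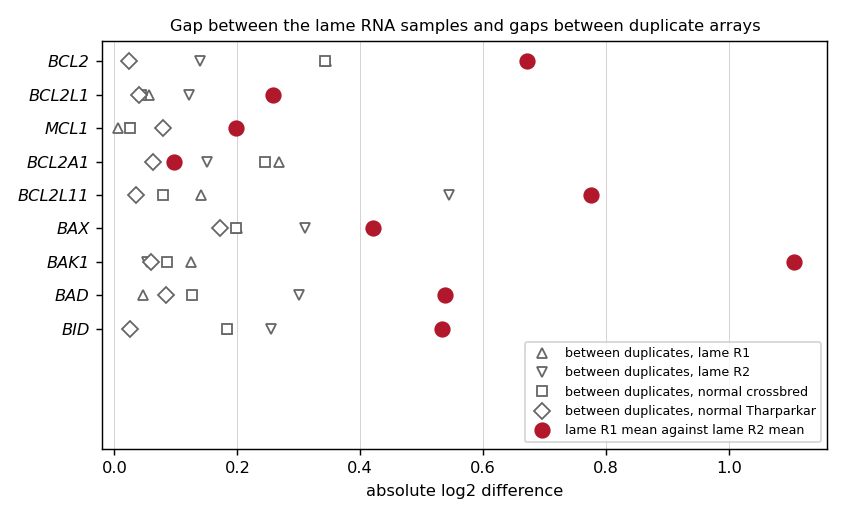
Absolute log2 difference between the lame R1 and lame R2 means (filled red circles) and between the duplicate arrays of each RNA sample (open symbols), for the 9 genes. The lame RNA samples stand furthest apart in BAK1, at 1.11, and closest in BCL2A1, at 0.10, which lies within the duplicate gaps.

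Cells are often described by the balance of death over survival genes, and a difference of log2 values within 1 array does not depend on how arrays are scaled. The 5 death genes and 4 survival genes, each by its brightest probe, form 20 pairs, which share genes and so are not independent. Each death gene minus survival gene was set to 0 at the Tharparkar mean. In lame cows the mean lay below 0 in 19 of 20 pairs and above in 1, and all 4 arrays lay below both Tharparkar arrays in 14. In normal crossbred cows the mean lay below 0 in 17 pairs and above in 3, and both arrays lay below both Tharparkar arrays in 16 and above them in 3. Of all 15137 single genes, 7563 did not overlap between lame and Tharparkar cows, and 12398 between normal crossbred and Tharparkar cows. The share over pairs of all genes was not computed, so these counts are not shown to be particular to the family.

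The pairs with BCL2L1 and MCL1 lay below the Tharparkar arrays on all 6 crossbred arrays, and the pairs with BCL2 were mixed. BAX minus BCL2L1 was -1.64 and -1.78 in lame R1, -2.18 and -2.61 in lame R2, -1.70 and -1.86 in normal crossbred cows and 0.066 and -0.066 in Tharparkar cows. Its mean was -2.05 ± 0.43 (SD, n = 4 arrays) in lame and -1.78 ± 0.11 (SD, n = 2) in normal crossbred cows, a gap smaller than the spread of the lame arrays. The pairs with MCL1 rest on its brightest probe, and against Tharparkar cows the other MCL1 probes pointed the opposite way.

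Against BCL2, which was itself low in normal crossbred cows, some death genes went the other way. BCL2L11 minus BCL2 was 0.88 ± 0.30, BAD minus BCL2 0.53 ± 0.15 and BID minus BCL2 0.31 ± 0.11 in normal crossbred cows (SD, n = 2 arrays). In lame cows BAD minus BCL2 was 0.10 ± 0.16, within its spread (SD, n = 4 arrays). BAX was below its Tharparkar balance with each of the 4 survival genes. In lame cows the means were -0.77 for BCL2, -1.61 for MCL1 and -0.89 for BCL2A1, and in normal crossbred cows -0.31, -1.84 and -1.53. These pairs restate the gene values given above and were not tested.

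**Figure D5:**
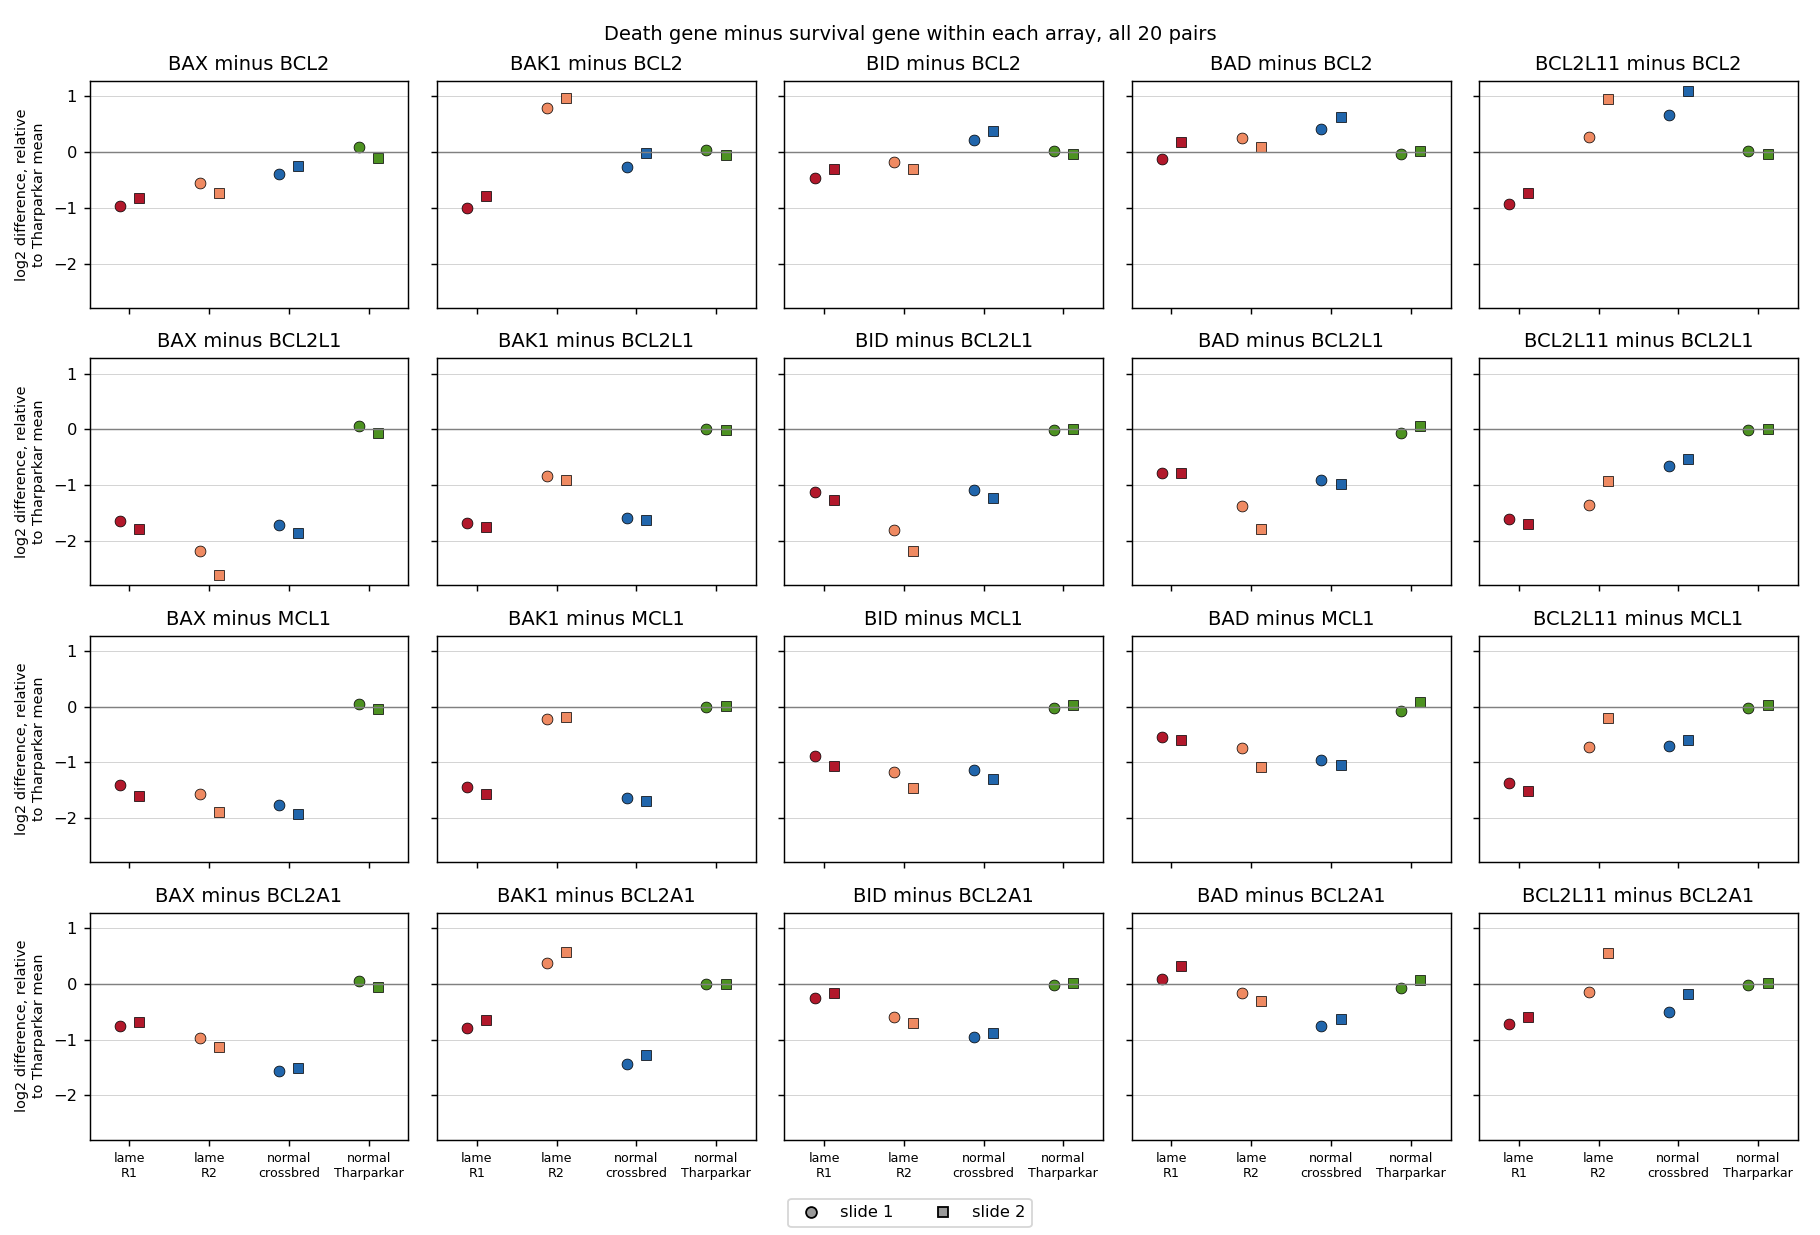
Log2 value of a death gene minus that of a survival gene on the same array, shifted so that the Tharparkar mean is 0, for all 20 pairs on 8 arrays, with circles for slide 1 and squares for slide 2. In the BCL2L1 and MCL1 rows the 6 crossbred arrays lie below both Tharparkar arrays, while in the BCL2 row normal crossbred cows lie above them for BID, BAD and BCL2L11, at means of 0.31, 0.53 and 0.88.

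The remaining genes of the pathway, 110 listed of which 83 were measured, were called in shares that are read against the 9.61%, 23.3% and 18.6% of all genes given above. Lame against normal crossbred cows gave calls for 11 of 83 (13.3%), 1 higher and 10 lower. Between lame and Tharparkar cows 26 were called (31.3%), 10 higher and 16 lower, and between normal crossbred and Tharparkar cows 15 (18.1%), 9 higher and 6 lower. With the RNA sample as a random block, 0, 1 and 0 of the 83 were called, the 1 being BIRC5. The numbers below come from the fit over arrays.

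Of 17 other members of the BCL2 family, 10 were measured. BCL2L10, BCL2L13, BIK, HRK, PMAIP1 and BBC3 had no probe matched by accession, and BCL2L14 did not pass the filter on dim probes. Lame against normal crossbred cows gave 0 calls among the 10. BOK, a relative of BAX and BAK, was higher in lame (1.11, limma adjusted p = 0.0131) and in normal crossbred cows (1.97, limma adjusted p = 0.00325) than in Tharparkar cows. BCL2L2, which encodes the survival protein BCL-W, was higher in lame than in Tharparkar cows (0.88, limma adjusted p = 0.0175).

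BCL2L15 and BNIP3, the latter known for mitophagy under low oxygen, were lower in both crossbred groups than in Tharparkar cows. BCL2L15 differed by -1.08 in lame cows (limma adjusted p = 0.00306) and by -0.82 in normal crossbred cows (limma adjusted p = 0.0169). BNIP3 differed in lame cows with a 95% interval of -1.35 to -0.66 (limma adjusted p = 0.00389) and in normal crossbred cows by -0.73 (limma adjusted p = 0.0248). BOK therefore lay on the opposite side of Tharparkar cows from BAX.

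Downstream of the pore, 12 of 13 genes of the apoptosome, caspases and mitochondrial channel were measured. Lame against normal crossbred cows gave 0 calls here too. DFFB, the nuclease that cuts chromatin in dying cells, was higher in lame (0.65, limma adjusted p = 0.0105) and in normal crossbred cows (0.77, limma adjusted p = 0.0113) than in Tharparkar cows. APAF1, the scaffold of the apoptosome, was higher in normal crossbred than in Tharparkar cows (0.68, limma adjusted p = 0.0361). The outer membrane channels VDAC1 and VDAC2 were lower in lame than in Tharparkar cows (-0.61 and -0.52, limma adjusted p = 0.0439 and 0.0459).

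Of 9 inhibitor of apoptosis genes and their antagonists, 6 were measured and 1 was called in each comparison, BIRC5. BIRC5 encodes survivin, which dividing cells make. It was lower in lame than in normal crossbred cows (-1.25, limma adjusted p = 0.00354), lower in lame than in Tharparkar cows (-2.05, limma adjusted p = 0.00027) and lower in normal crossbred than in Tharparkar cows (-0.80, limma adjusted p = 0.0182). The other 5 did not pass the test in any comparison.

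The death receptor pathway, which feeds into BID, had 11 of 14 genes measured. Between lame and normal crossbred cows 3 were lower and 0 higher: FASLG, the FAS ligand of cytotoxic cells (-1.17, limma adjusted p = 0.00403), its receptor FAS (-0.91, limma adjusted p = 0.00961) and the signalling kinase RIPK1 (-0.55, limma adjusted p = 0.0395). Between lame and Tharparkar cows TNF was higher (0.89) and TNFRSF1A, TNFRSF10D and FAS were lower (-1.07, -0.63 and -0.55). Between normal crossbred and Tharparkar cows TNF and FASLG were higher (1.26 and 0.88) and the adaptor FADD was lower (-0.73).

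Between lame and normal crossbred cows, and between normal crossbred and Tharparkar cows, NK cell and T cell markers differed in the direction of FASLG. NK cell markers, 11 of 11 measured, were lower in lame than in normal crossbred cows for 5 and higher for 0 (median -0.95), with NKG7 at -1.44. T cell markers, 13 of 15 measured, were lower for 4 and higher for 0 (median -0.54), with CD8A at -1.37. Between normal crossbred and Tharparkar cows 6 NK cell markers were higher and 0 lower, and 8 T cell markers were higher and 1 lower. In the comparison of lame with Tharparkar cows the medians of both lists lay the other way from FASLG, which was at -0.29 and not called. Among NK cell markers 4 were higher and 0 lower (median 0.34). Among T cell markers 0 were higher and 1 lower (median 0.42), and that 1, CD5 (-0.89), lay in the direction of FASLG. KLRD1, among the NK cell markers called in both comparisons with Tharparkar cows, was well above background on no Tharparkar array. It passed the filter through crossbred arrays. With the RNA sample as a random block 0 NK cell and 0 T cell markers were called in any of the 3 comparisons. Summed NK cell signal was 50.7 to 95.2 in lame, 153 to 166 in normal crossbred and 63.8 to 68.4 in Tharparkar cows, and summed T cell signal 105 to 130, 178 to 191 and 99.7 to 100.3. Their part in the values of FASLG, or of BAX and BCL2 between the breeds, was not tested.

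Of 23 genes of survival cytokine receptors and their signalling, 15 were measured. Between lame and normal crossbred cows 3 were lower and 0 higher: STAT3 (-1.01, limma adjusted p = 0.0158), IL2RG, the receptor chain shared by several interleukins (-0.84, limma adjusted p = 0.0471), and IL2RA (-0.76, limma adjusted p = 0.0396). IL7R, the receptor through which interleukin 7 keeps lymphocytes alive, was higher in lame (1.50, limma adjusted p = 0.00165) and in normal crossbred cows (1.92, limma adjusted p = 0.00139) than in Tharparkar cows.

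Between lame and Tharparkar cows 3 of the 15 were higher and 3 lower. IL6R was higher (1.19), and AKT1, a kinase that phosphorylates BAD, and STAT5B, which relays cytokine signals to survival genes, were lower (-0.90 each). Between normal crossbred and Tharparkar cows AKT1 and STAT5B were also lower (-1.25 and -0.56), and PIK3CD, the leukocyte PI3-kinase, was higher (1.28).

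Of 13 transcription factors that act on the family, 9 were measured, and 0 were called between normal crossbred and Tharparkar cows. RELA, the NF-kB subunit that drives BCL2A1 and BCL2L1, was lower in lame than in normal crossbred cows (-0.59, limma adjusted p = 0.0382) and than in Tharparkar cows (-0.97, limma adjusted p = 0.00333). E2F1 was lower in lame than in Tharparkar cows (-1.22, limma adjusted p = 0.0198).

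Of 21 genes whose proteins act on MCL1, BAD or BIM, 20 were measured. FBXW7, part of a ligase that marks MCL1 for destruction, was higher in lame (1.08, limma adjusted p = 0.00892) and in normal crossbred cows (1.23, limma adjusted p = 0.011) than in Tharparkar cows. The kinase gene MAPK8 was also higher in both (0.80 and 0.78). USP13, which removes ubiquitin from MCL1, was higher in lame than in normal crossbred (0.86) and Tharparkar cows (0.76). RPS6KA1, a kinase that phosphorylates BAD, was lower in lame than in normal crossbred (-0.83) and Tharparkar cows (-0.84), and YWHAH, a 14-3-3 protein gene, was lower than in normal crossbred cows (-0.91).

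The markers of other cells differed too. Monocyte markers, 10 of 13 measured, were higher in lame than in normal crossbred cows for 4 (median 0.95, C1QB at 1.55) and lower for 1, CD14 at -1.56. Their summed signal was 61.6 to 82.6 in lame, 38.6 to 39.1 in normal crossbred and 52.6 to 55.0 in Tharparkar cows. B cell markers, 5 of 10 measured, were called for 0 genes between lame and normal crossbred cows, and erythroid markers, 7 of 10 measured, were higher for 2 and lower for 0. With the RNA sample as a random block 0 markers of these 3 lists were called in any comparison. Summed B cell signal was 97.7 to 162, 157 to 158 and 169 to 190 in lame, normal crossbred and Tharparkar cows, and summed erythroid signal 16.0 to 26.0, 9.79 to 11.1 and 10.1 to 10.8. Their part in the values of the 9 genes was not tested.

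BAX, BAK1 and BCL2 had the widest ranges of group means among the 9, and genes that resembled them over the 8 arrays were sought among 12957 genes well above background on all arrays. The most like BAX were RANBP1, CDYL and PAK1, each with a Pearson correlation of 0.993, and 193 genes exceeded 0.95. For BAK1, 94 genes exceeded 0.95. The most like BCL2 were NUDT2 (0.988), NAA50 (0.984) and DOK3 (0.983), with 69 above 0.95. Because the 8 arrays are treated as 4 RNA samples, such correlations are descriptions of few independent points.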

How the data were processed

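Total RNA of mononuclear cells was labelled with Cy3 and hybridised to a 1-colour Agilent bovine array of the 4x44K format. The files hold spot intensity as the authors deposited it, with background subtraction and spatial detrending by the scanner software and no scaling across arrays, per the file headers. The version is given as Feature Extraction 12.0.3.1 in the headers and as 11.5.1.1 in the submitters' processing notes. A table of log2 values was also deposited by the authors without naming its scale or centring. Its columns followed the signal used here less the probe's median (correlation above 0.99999) with column medians from -0.13 to 0.88, and they served as an alternative.

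Here the 75th percentile of each array was subtracted from its log2 processed signals, without control spots and 35 probes with outlier flags. Probes stayed in if some group had them well above background on all of its arrays. Accessions without version were matched to a RefSeq table (ARS-UCD2.0) for names only: 27054 probes matched 1 gene and 16599 kept the file's name. No coordinates are given, since the array was annotated on another assembly, and no sequences, since none were used here.

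A linear model with 3 group means was fitted in R 4.3.3 with limma 3.58.1 (lmFit, then eBayes; tests 2-sided, 5 residual and 2.34 prior degrees of freedom), with Benjamini-Hochberg adjustment over 15137 genes or 24658 probes and a call at an adjusted p under 0.05. The fit was tested on simulated data with independent noise on each array. That setting has no duplicate arrays, so it does not show how often the fit calls falsely here. Named pathway genes are up to 4 per list and comparison with the largest difference among those called, and up to 2 per cell type list. For BAX, BAK1 and BCL2 the 3 genes with the highest correlation were sought, and those of BAK1 are not reported here. The members and lists were chosen with earlier results of these data known. Alternatives changed the background correction, normalization, filter, probe rule, block, source of values and arrays used. The background correction alternative (normexp, offset 50) used the raw median signal, because the files hold no raw mean signal. Slide and last title number divide the arrays identically, so the slide block and the replicate block are 1 fit. The number of arrays limits the precision.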

Additional observations from a re-analysis of the deposited data

How the results depend on the processing

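The 4 called differences (BAX in both comparisons with Tharparkar cows, BCL2L1 and BID) kept their direction in all 82 alternative values, and BAX between lame and Tharparkar cows passed in 17 of 21, BAX between normal crossbred and Tharparkar cows in 13 of 19, BCL2L1 in 15 of 21 and BID in 10 of 21. Blocks, averaged duplicates and arrays left out of the group not compared leave a log2 difference as it was. There the direction could not change, so the count overstates how far it was tried. The slide block and the replicate block, which are the same fit, are both counted. Of 467 alternative values of the 23 differences not called, 16 in 8 differences reversed. Between lame and normal crossbred cows the reversed values were, with lame R2 alone, BAD -0.10 and BAX -0.075; with lame R1 alone, BID 0.24 and MCL1 0.0051; with the percentile over probes well above background on all arrays, BID 0.088 and MCL1 0.016; with quantile normalization, BID 0.011 and MCL1 0.030; and BID 0.22 with probes averaged, 0.025 without lame R2_1, 0.11 without lame R2_2 and 0.070 without normal crossbred R1 (-0.14 to 0.11 over single arrays left out). Between lame and Tharparkar cows they were BAK1 0.052 with lame R2 alone, and BCL2A1 0.17 and MCL1 -0.36 with probes averaged, a change that the opposed probes given above produce. MCL1 between normal crossbred and Tharparkar cows was -0.094 with probes averaged.

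The number of the 9 genes called between lame and normal crossbred cows was 0, but 5 with lame R1 alone, 3 with lame R2 alone and 1 with quantile normalization; leaving out arrays gave 0 to 0. Between lame and Tharparkar cows it was 3, but 0 with duplicates averaged, 0 with the RNA sample as a random block, 1 without the filter, 6 with lame R1 alone and 7 with lame R2 alone; leaving out arrays gave 0 (either Tharparkar array) to 4 (lame R2_2). Between normal crossbred and Tharparkar cows it was 1, but 0 with duplicates averaged or the random block, 4 with probes averaged, 2 with normexp, 4 with the percentile over probes well above background, 2 with only such probes and 3 with quantile normalization; leaving out arrays gave 0 (any normal array) to 3 (lame R2_2). Without the filter the called probes fell from 6 to 2 between lame and Tharparkar cows and from 2 to 1 between normal crossbred and Tharparkar cows. With lame R1 or lame R2 alone, 1 lame RNA sample is left, so the spread is only that between arrays treated as duplicates. The gap between the lame RNA samples is then not part of it. The SE of BAD for lame minus normal crossbred was 0.085 and 0.13 in these fits, against 0.22 over all arrays. Otherwise the cause of these changes was not tested. The share of all genes called changed with the setting too, so these counts are not shown to be particular to the family. Without lame R2_2, 25.8% of all genes were called between lame and Tharparkar cows, against 23.3% over all arrays. Between normal crossbred and Tharparkar cows the share was 26.3%, against 18.6%. For most other settings the share is not given here.

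With the replicate block, the same fit as the slide block, 0, 2 and 1 of the 9 genes were called, and BID between lame and Tharparkar cows was the call lost. Deviations of same-numbered normal arrays correlated at 0.238 across genes, which with 1 such pair of groups does not show that the numbers pair more than the slides. Without the filter on dim probes the median of all genes was 0.31 for lame minus normal crossbred, 0.22 for lame minus Tharparkar and -0.21 for normal crossbred minus Tharparkar.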
